A study of Mus musculus with 62 samples.

Results

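Chromatin at 10 mouse genes that handle calcium in muscle fibers was followed through peak lists of 2 histone marks in skeletal muscle. The genes were Atp2a1, Atp2a2, Casq1, Casq2, Sln, Pln, Pvalb, Ryr1, Cacna1s and Jph1. They were chosen by name, and a peak was counted for a gene when the gene name printed beside it in the deposited list, that of the nearest start site, was 1 of the 10. By this rule 578 of the 596282 peaks in 16 lists belonged to them, as did 16 of the 5334 regions in 4 lists of differentially acetylated regions. The lists named 19220 genes in all. A peak named for a gene need not act on it, and the name follows distance alone. Of the 220 H3K27ac peaks that touched the body of a calcium handling gene in the 8 lists, 22 carried another gene's name, most of them inside Ryr1, where 15 were named for Mir1963 and 4 for Map4k1. These 22 were not counted.

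The marks were H3K27ac, which labels active promoters and enhancers, and H3K4me2, which labels promoters and enhancers whether active or poised. Both were read by chromatin immunoprecipitation and sequencing (ChIP-seq) in 8 groups of male C57BL/6 mice, with 2 libraries per group and mark. The 4 muscle groups came from untreated wild-type mice and were extensor digitorum longus (EDL) and quadriceps (Quad), both mostly fast glycolytic muscles, soleus (Sol), a slow oxidative muscle, and diaphragm (Dia), a mixed and continuously working muscle. The other 4 groups were all quadriceps. Sed mice were wild type and kept without wheels, and Ex mice were wild type with free access to running wheels from 8 weeks of age for 4 weeks. Wt and mTg mice were littermates, sedentary, and the mTg mice (genotype label PGC1a Tg(+)) carried a Pgc1a transgene that the muscle creatine kinase promoter drives constitutively in striated muscle. By the study's methods each quadriceps library came from 1 animal and each EDL, Sol or Dia library from the pooled muscles of 3 animals, so the spread between 2 libraries measures different things in the quadriceps and in the other muscles. Nothing in the peak lists checks the transgene itself. Beside the marks, the series held peaks of MED1, a subunit of the Mediator coactivator complex, of NFAT, a calcium-responsive transcription factor, and of open chromatin (ATAC-seq). MED1 (EDL, Quad, Sol and Dia) and NFAT (Quad and Sol) were read in 1 library per muscle, without replicates.

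A muscle fiber contracts when calcium leaves the sarcoplasmic reticulum and relaxes when pumps return it. Cacna1s, the voltage sensor in the surface membrane, opens the release channel Ryr1, and junctophilin 1 (Jph1) holds the 2 membranes in register. Atp2a1 encodes SERCA1, the calcium pump of fast fibers, and Atp2a2 encodes SERCA2, the pump of slow fibers and heart. Sarcolipin (Sln) and phospholamban (Pln) are small membrane proteins that restrain these pumps. Calsequestrin binds calcium inside the store, with Casq1 as the main skeletal form and Casq2 as the form of heart and slow fibers. Parvalbumin (Pvalb) is a soluble buffer that binds calcium in the cytosol of fast fibers and speeds relaxation. Fast and slow fibers use different sets of these proteins, and the muscles compared here differ in their share of each fiber type.

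The deposited levels were on a log2 scale and had been normalized by the authors within each list, so no test can be run between lists. For each library a relative level was computed as the log2 level per kb of peak minus the median of the same quantity over all peaks of that library. A value of 1 therefore means a level per kb 2-fold that of the typical peak in that library. It depends on how many weak peaks the list holds, and broad peaks dilute their own summit. The 32 libraries of the marks held 6.41 to 24.2 M tags (M for mega, median 19.6) and the 11 inputs 7.72 to 22.9 M. The shallowest library was labelled mTg H3K4me2. The fiber genes Ckm, Acta1, Des and Mb had an H3K27ac peak in all 8 groups. The heart genes Myh6 and Nppa had none in any group, and Myh7, the slow myosin, had H3K27ac peaks only in Sol and Dia. Peaks named for Myh4, the fastest myosin, covered 0.5 kb in Sol and 12.1 kb in Quad. Of the other fast fiber genes checked, Actn3 (3.7 and 5.8 kb) and Tnni2 (5.1 and 9.9 kb) were also shorter in Sol. Myh1 was nearly equal (7.9 and 8.5 kb), and Tnnt3 went the other way, with 8.3 kb in Sol and no peak in Quad. Ngdn, which the study shows as invariant between muscles, had no H3K27ac peak named for it in Quad and had one in every other group.

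The calcium handling genes held 24 to 47 H3K27ac peaks per list and 23 to 52 H3K4me2 peaks. Their H3K27ac peaks were broad. Between 15.4 and 28.9% of them were at least 5 kb wide, against 5.26 to 10.5% of all peaks in the same lists. The fewest were in Ex, with 24 peaks or 0.0694% of that list, where the other 7 lists held 34 to 47 or 0.0959 to 0.131%. Merging the peaks of all groups gave 63 H3K27ac regions, of which 10 were called in all 8 groups (15.9%) and 21 in 1 group only (33.3%). Over all genes these shares were 21.8 and 29.4%. The 64 merged H3K4me2 regions had 8 in all groups (12.5%) and 24 in 1 (37.5%), against 25.7 and 27.9% over all genes. Jph1 alone held 19 of the regions of each mark.

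A single region per gene and mark was followed in every library. This lead region is the merged region called in the most groups, with ties settled by the higher summed level. Values for 2 libraries are given as replicate 1 and replicate 2 of a group. Over the lead regions the median gap between replicates ranged from 0.08 in EDL to 0.39 in Sed for H3K27ac and was 0.35 in Ex, so small differences between Sed and Ex lie within the usual gap between libraries.

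**Figure D1:**
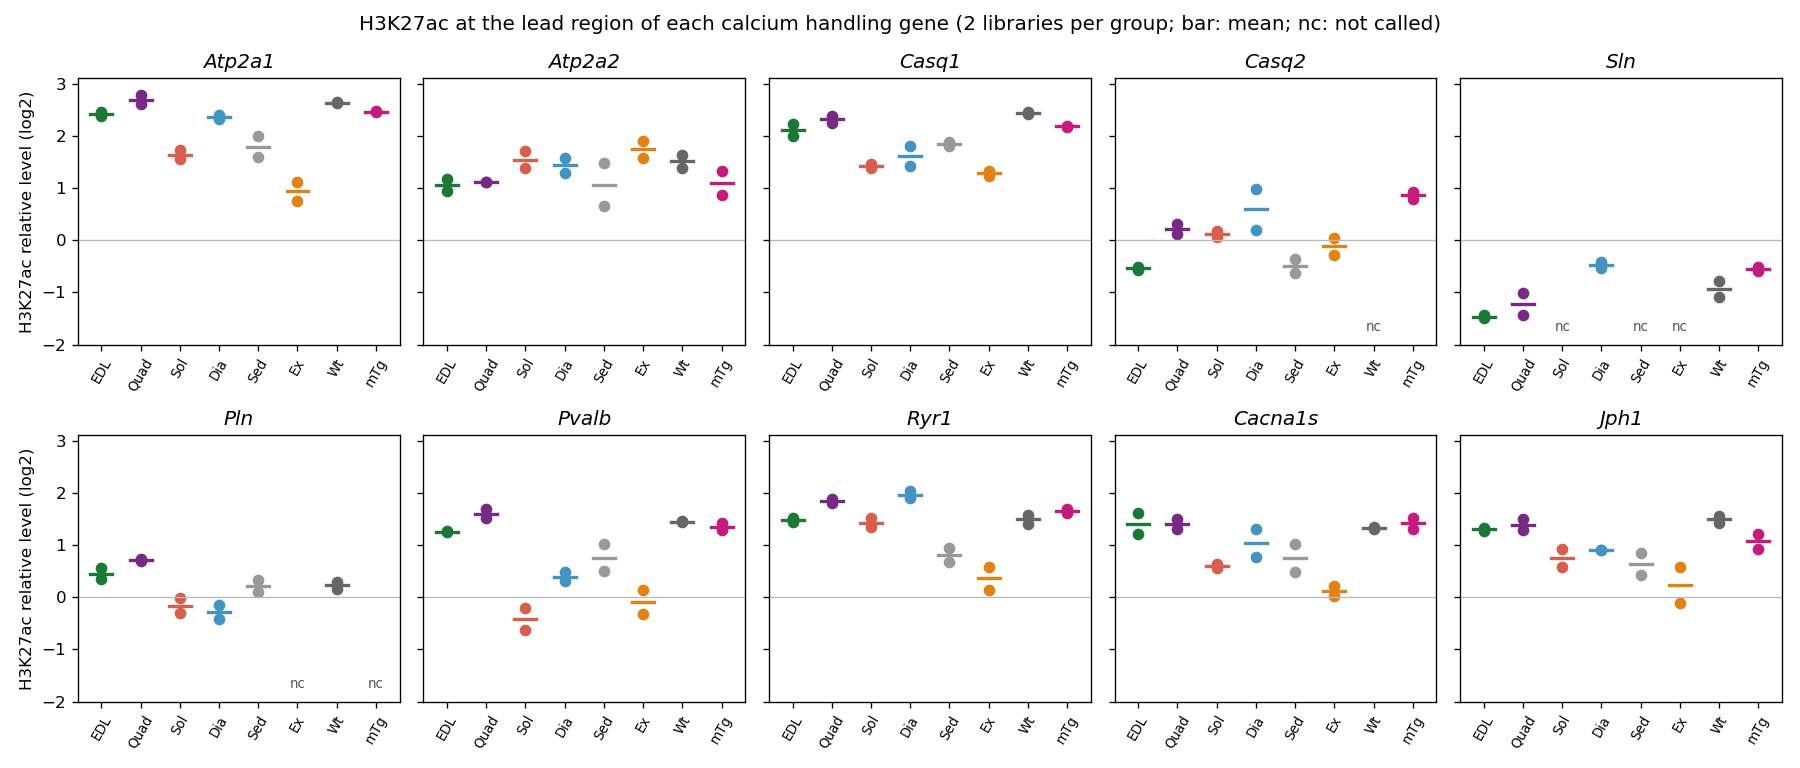
H3K27ac relative level (log2, vertical axis) at the lead region of each of the 10 genes, in 8 groups on the horizontal axis, with a point per library, a bar at the mean of 2 libraries and nc where no peak was called. Ex is the lowest group at Atp2a1, Casq1, Ryr1, Cacna1s and Jph1, Sol is the lowest at Pvalb, and mTg is the highest of the 7 called groups at Casq2.

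Atp2a1, the fast fiber pump, carried the strongest H3K27ac of the 10 genes in Quad. Its lead region (chr7:126453594-126468637, mm10) spans the promoter and the 5′ part of the gene and also touches the neighboring Sh2b1. The relative level was 2.78 and 2.61 in Quad, 2.62 and 2.65 in Wt, 2.47 and 2.46 in mTg, 2.46 and 2.38 in EDL, 2.32 and 2.40 in Dia, 1.99 and 1.60 in Sed, 1.72 and 1.56 in Sol, and 1.11 and 0.76 in Ex. Sol overlapped Sed, and Ex lay below every other group. The 5 highest groups formed a chain in which Wt and mTg did not overlap and the other neighbors overlapped or touched. Slow muscle also had a strongly acetylated Atp2a1, with 12.3 kb covered in Sol and 12.7 kb in Quad.

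Atp2a2, the slow fiber pump, had the longest H3K27ac and H3K4me2 peaks around its promoter in Sol, with a higher H3K27ac level per kb there than in Quad and a lower H3K4me2 level per kb. At the lead region (chr5:122496959-122504851), which holds the promoter, H3K27ac was 1.71 and 1.38 in Sol, 1.58 and 1.29 in Dia, 1.11 and 1.11 in Quad, 1.17 and 0.95 in EDL, 0.66 and 1.47 in Sed, 1.91 and 1.57 in Ex, 1.64 and 1.38 in Wt, and 1.32 and 0.87 in mTg. Sol lay above Quad in both libraries, and Sol, Dia, Ex and Wt overlapped. The peak there was 7.89 kb long in Sol and 4.51 kb in Dia, against 1.89 to 2.51 kb in the 6 others.

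A region upstream of the gene, at chr5:122507918-122521694, was covered over 13.78 kb in Sol at a relative level of 0.87 and 0.49, and over 6.32 kb in Dia at 0.05 and -0.07. In Quad the same stretch held a single peak of 0.71 kb at -1.83 and -1.62, in EDL 2.25 kb at -0.85 and -1.45, and in Wt no peak. Sed, Ex and mTg had 1.40 to 1.84 kb there, at levels between -1.38 and -0.73. A second region at chr5:122522875-122530946 measured 1.10 and 1.02 in Sol, 0.71 and 0.57 in Dia, 0.70 and 0.15 in Wt, 0.02 and 0.61 in Ex, 0.04 and -0.12 in Quad, -0.22 and -0.22 in Sed, and -0.21 and -0.36 in EDL, and was not called in mTg. Sol lay above all the others here, and Wt and Ex overlapped Dia. In all, peaks named for Atp2a2 covered 39.0 kb in Sol, 20.7 kb in Dia and 6.8 to 15.7 kb in the 6 others. H3K4me2 peaks covered 15.7 kb in Sol, 9.2 kb in Wt, 9.1 kb in Dia and 5.1 to 7.7 kb in the 5 others. Within the upstream stretch, H3K4me2 at a peak centred at -11894 bp from the start site in Sol was -0.36 and -0.24 in Sol, -1.36 and -1.77 in Quad and -1.07 and -1.12 in EDL.

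The upstream region of Sol held a MED1 peak in Sol. It lay in intergenic sequence at chr5:122510596-122510806, its centre at -8476 bp from the start site, with a HOMER peak score of 7.02 that ranked 1238 of 4070 Sol MED1 peaks. No MED1 peak named for Atp2a2 was called in Quad or EDL, and in Dia MED1 was called at the Atp2a2 promoter (score 6.79) and in an intron (score 5.74). The sequence of the Sol peak is shown because it is the only point of this stretch with a deposited coactivator peak. It was read from RefSeq GRCm38.p6 on the forward strand, and none of 5 motifs searched on both strands matched it, so no letters are in capitals. These were the E-box CAGCTG, the ERR site AAGGTCA, the MEF3 site TCAGGTT, the NFAT core GGAAAA and the MEF2 site, of which 11, 3.1, 2.75, 16.7 and 2.97% of the Sol MED1 peaks held a match.
Atp2a2 MED1 peak of Sol: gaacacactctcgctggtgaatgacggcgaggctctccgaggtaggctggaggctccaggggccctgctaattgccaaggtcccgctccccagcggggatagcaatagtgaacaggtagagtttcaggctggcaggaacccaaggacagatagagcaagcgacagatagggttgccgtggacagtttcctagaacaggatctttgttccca

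**Figure D2:**
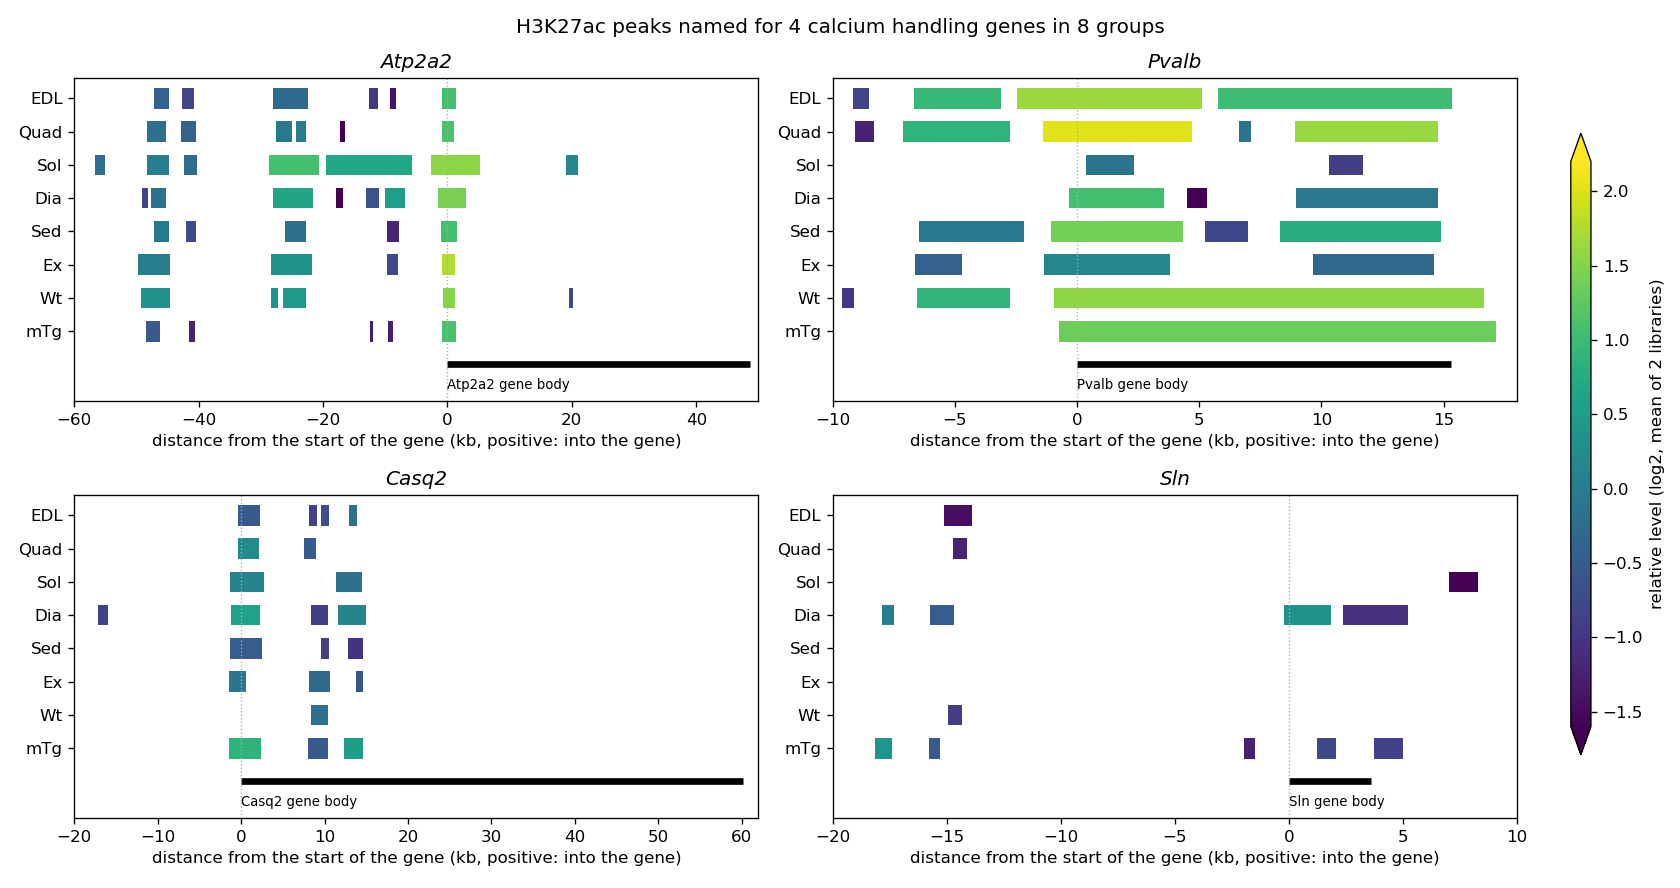
H3K27ac peaks named for Atp2a2, Pvalb, Casq2 and Sln in the 8 groups (rows), placed by distance from the start of the gene in kb and colored by relative level (log2, mean of 2 libraries; values past either end of the color bar take its end color). The black bar is the gene body. Sol has broad peaks before Atp2a2 and short ones in Pvalb, and peaks within Sln appear in Dia and mTg.

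Sln, the pump inhibitor sarcolipin, had few and weak peaks. Its H3K27ac lead region (chr9:53834458-53836339) is intergenic, centred at -15210 bp from the start site in Dia, and was called in 5 groups. The relative level was -0.54 and -0.41 in Dia, -0.52 and -0.59 in mTg, -1.08 and -0.78 in Wt, -1.44 and -1.01 in Quad, and -1.43 and -1.50 in EDL. Dia and mTg overlapped, and both lay above the other 3. No H3K27ac peak was called for Sln in Sed or Ex, and a check by position found no peak of any name at the lead region in Sol, Sed or Ex. Over the gene itself, H3K27ac was called only in Dia, at 0.30 and 0.38 (chr9:53850018-53852313), and in mTg, at -0.87 and -0.66. Covered length was 6.5 kb in Dia, 3.9 kb in mTg and 0.6 to 1.3 kb in EDL, Quad, Sol and Wt. H3K4me2 over the gene body was broad in Dia, at 4.56 kb, and was also called in Sol (1.70 kb), Wt (1.04 kb) and Quad (0.50 kb).

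Pln, encoding phospholamban, lies within the much longer gene Cep85l, and the 9 merged H3K27ac regions named for it were scattered. Its lead region (chr10:53347066-53353404) is downstream of Pln and inside Cep85l, so the level there cannot be assigned to either gene. It was 0.74 and 0.70 in Quad, 0.35 and 0.55 in EDL, 0.32 and 0.10 in Sed, 0.30 and 0.15 in Wt, -0.02 and -0.30 in Sol, and -0.41 and -0.15 in Dia. Quad lay above all the others, and Sol and Dia lay below them and overlapped. The region was not called in Ex or mTg, and by position no peak of any name was present. Peaks named for Pln covered 0.7 kb in Ex and 1.1 kb in mTg, against 5.0 to 10.4 kb in the 6 others.

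Casq1, the skeletal calsequestrin, was strongly acetylated in all groups and least so in Ex. At its lead region (chr1:172216231-172224570), which covers the promoter and first part of the gene and also touches Atp1a4, H3K27ac was 2.45 and 2.41 in Wt, 2.38 and 2.25 in Quad, 2.19 and 2.17 in mTg, 2.00 and 2.22 in EDL, 1.81 and 1.88 in Sed, 1.43 and 1.80 in Dia, 1.46 and 1.39 in Sol, and 1.33 and 1.23 in Ex. Ex lay below all the others, though close to Sol. Peaks covered 12.3 kb in EDL and 9.8 kb in Quad, against 6.7 kb in Sol and 6.0 kb in Dia. The 250 bases before the RefSeq start site, acetylated in every group, are shown for their E-box, the 6-base site bound by MyoD family factors, in capitals (chr1:172219896-172220145, GRCm38.p6, reverse strand). The same letters occur before Atp2a1 and Cacna1s, and in 13% of 32851 RefSeq promoter windows, and the match is given as a description.
Casq1 promoter: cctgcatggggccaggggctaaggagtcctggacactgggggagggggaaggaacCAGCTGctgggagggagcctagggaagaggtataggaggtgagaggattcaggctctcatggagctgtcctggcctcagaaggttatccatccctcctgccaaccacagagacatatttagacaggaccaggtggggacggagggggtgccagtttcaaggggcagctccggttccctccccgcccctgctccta

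Casq2, the heart and slow fiber calsequestrin, was weakly marked in most groups. At its promoter (lead region chr3:102084914-102089173) H3K27ac was 0.93 and 0.79 in mTg, 0.19 and 0.99 in Dia, 0.11 and 0.31 in Quad, 0.18 and 0.06 in Sol, 0.05 and -0.29 in Ex, -0.63 and -0.36 in Sed, and -0.57 and -0.51 in EDL, and no peak was called in Wt. The mTg libraries lay above all others but 1 of the 2 Dia libraries. Sol and Quad overlapped here. Peaks covered 10 kb in Dia, 8.5 kb in mTg, 7.1 kb in Sol, 6.7 kb in Sed, 5.6 kb in EDL, 5.5 kb in Ex, 3.9 kb in Quad and 2.0 kb in Wt, so the sets of untreated quadriceps differed and Sed was close to Sol. H3K4me2 peaks covered 10 kb in Sol and 10.8 kb in Dia, against 6.7 kb in EDL, 4.2 kb in Quad, 3.0 kb in Sed and 5.7 kb in Wt. The order of Wt and mTg was the opposite for H3K4me2, at 0.62 and 0.89 in the libraries labelled Wt and -0.44 and -0.67 in those labelled mTg. Of these mTg libraries replicate 1 was the shallowest of the mark libraries and replicate 2 was as deep as those of Wt. The part of depth in this order was not tested. For the promoter peak matched between the 2 lists, centred on all matched regions, the H3K4me2 difference of mTg and Wt was -0.57, less than 2-fold. The 250 bases before the RefSeq start site (chr3:102086165-102086414, forward strand) lie in the region that, of those of the 10 genes, differed most between mTg and Wt. A MEF2 site, the motif of a family of fiber gene activators, is in capitals at bases 182 to 191, and 2.92% of promoter windows held such a match.
Casq2 promoter: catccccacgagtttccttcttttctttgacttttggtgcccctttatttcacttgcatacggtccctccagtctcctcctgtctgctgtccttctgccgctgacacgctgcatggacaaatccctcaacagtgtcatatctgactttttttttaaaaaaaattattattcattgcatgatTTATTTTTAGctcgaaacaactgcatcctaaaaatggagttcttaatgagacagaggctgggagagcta

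Pvalb showed the widest range of the 10 genes. Its merged lead region (chr15:78189237-78213542) takes in the whole gene and the stretch before it. H3K27ac was 1.69 and 1.51 in Quad, 1.46 and 1.44 in Wt, 1.42 and 1.28 in mTg, 1.27 and 1.24 in EDL, 1.02 and 0.50 in Sed, 0.31 and 0.48 in Dia, 0.13 and -0.33 in Ex, and -0.20 and -0.63 in Sol. Quad lay above all the others, and Sol and Ex overlapped at the bottom. Peaks covered 3.37 kb of the region in Sol, 10.54 kb in Dia, 12.02 kb in Ex and 16.85 to 21.44 kb in the 5 others.
The Quad MED1 peak at the start of Pvalb (chr15:78206120-78206330) had a score of 34.5 and ranked 12 of 3593, and no MED1 peak was named for Pvalb in EDL, Sol or Dia. The EDL MED1 list is short, with 834 peaks. The 250 bases close to this peak, before the RefSeq start site (chr15:78206401-78206650, reverse strand), are shown with a MEF2 site in capitals at bases 71 to 80.
Pvalb promoter: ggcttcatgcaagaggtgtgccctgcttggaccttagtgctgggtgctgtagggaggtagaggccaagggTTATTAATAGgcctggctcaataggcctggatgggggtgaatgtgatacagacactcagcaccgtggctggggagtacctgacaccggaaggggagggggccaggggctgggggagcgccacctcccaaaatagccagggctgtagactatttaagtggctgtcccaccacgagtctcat

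The release machinery was acetylated in every group. At Ryr1 (chr7:29117671-29127368) H3K27ac was 1.90 and 2.03 in Dia, 1.89 and 1.80 in Quad, 1.69 and 1.62 in mTg, 1.57 and 1.41 in Wt, 1.44 and 1.51 in EDL, 1.51 and 1.34 in Sol, 0.95 and 0.68 in Sed, and 0.58 and 0.14 in Ex. Here Dia and Quad were highest and Sol was not low, since it overlapped EDL and Wt. At Cacna1s (chr1:136051517-136070480) the values were 1.52 and 1.31 in mTg, 1.21 and 1.61 in EDL, 1.49 and 1.30 in Quad, 1.35 and 1.31 in Wt, 0.77 and 1.31 in Dia, 1.02 and 0.48 in Sed, 0.55 and 0.64 in Sol, and 0.22 and 0.02 in Ex. The first 4 groups overlapped, and Ex lay below all.

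Jph1 had the largest domain, with 13 H3K27ac peaks over 50.2 kb in Quad. At its lead region (chr1:17081618-17108511), around the promoter, H3K27ac was 1.43 and 1.56 in Wt, 1.49 and 1.29 in Quad, 1.33 and 1.27 in EDL, 1.22 and 0.93 in mTg, 0.90 and 0.90 in Dia, 0.93 and 0.58 in Sol, 0.85 and 0.42 in Sed, and 0.57 and -0.11 in Ex. Wt and Quad overlapped at the top, and Sol, Sed and Ex formed a chain of overlaps at the bottom. A region far downstream of the start site (chr1:16992833-17003001), inside the gene, was as strong, at 2.00 and 1.57 in EDL, 1.94 and 1.32 in Quad, 1.09 and 0.51 in Sol and 0.45 and -0.44 in Ex. Another region before the gene (chr1:17115893-17123634) ran from 1.01 and 0.45 in Ex to 2.02 and 1.77 in Quad and 2.02 and 1.90 in mTg. Covered length was 20.1 kb in Ex against 34.2 to 63.2 kb elsewhere.

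H3K4me2 was followed at a lead region of its own for each gene. At Atp2a1 (chr7:126449972-126467995) the relative level was 1.36 and 1.28 in Quad, 1.06 and 1.16 in Wt, 1.03 and 0.98 in EDL, 0.69 and 0.69 in Dia, 0.44 and 0.48 in Sol, 0.43 and 0.35 in Ex, 0.16 and 0.50 in mTg, and 0.12 and 0.39 in Sed. At Casq1 (chr1:172213695-172222830) it was 1.30 and 1.34 in Wt, 1.34 and 1.19 in Quad, 1.01 and 1.10 in EDL, 0.93 and 0.83 in Ex, 0.82 and 0.74 in Dia, 0.69 and 0.78 in Sol, 0.45 and 0.72 in Sed, and -0.21 and 0.01 in mTg. Quad, Wt and EDL lay above the other 5 groups at both genes, and mTg was lowest at Casq1. At Cacna1s (chr1:136050666-136068877) it was 0.66 and 0.59 in Quad, 0.46 and 0.47 in Wt, 0.42 and 0.40 in EDL, -0.30 and -0.21 in Sol, -0.12 and -0.45 in Ex, -0.42 and -0.28 in Dia, -0.55 and -0.21 in Sed, and -0.78 and -0.86 in mTg. At Ryr1 (chr7:29115123-29126676) it was 0.91 and 0.86 in Quad, 0.88 and 0.87 in EDL, 0.63 and 0.63 in Wt, 0.32 and 0.52 in Dia, 0.23 and 0.58 in Sed, 0.09 and 0.19 in Sol, 0.08 and 0.08 in Ex, and -0.14 and 0.15 in mTg. At Jph1 (chr1:17082049-17101827) it was 1.21 and 1.16 in Quad, 1.11 and 1.12 in EDL, 0.91 and 0.82 in Wt, 0.34 and 0.45 in Dia, 0.29 and 0.33 in Sol, 0.10 and 0.45 in Sed, 0.25 and 0.14 in Ex, and -0.15 and -0.03 in mTg. At these 3 genes of the release machinery Quad, EDL and Wt were again the 3 highest groups, above Sol, Dia and the other quadriceps groups in both libraries. At Atp2a2 (chr5:122493201-122503830) the level per kb was 1.04 and 1.29 in Quad, 1.19 and 1.03 in EDL, 0.99 and 0.94 in Wt, 0.81 and 0.88 in Sed, 0.78 and 0.89 in Ex, 0.70 and 0.72 in Dia, 0.61 and 0.58 in Sol, and 0.73 and 0.44 in mTg, so Sol lay below Quad and EDL, over a peak of 10.63 kb against 3.74 and 4.96 kb. At Pvalb (chr15:78193044-78207371) it was 0.97 and 0.90 in Quad, 0.93 and 0.87 in Wt, 0.65 and 0.60 in EDL, 0.07 and -0.01 in Ex, -0.09 and 0.14 in Sed, 0.00 and -0.04 in mTg, -0.89 and -0.63 in Sol, and -0.88 and -0.84 in Dia. At Casq2 (chr3:102084977-102092123) it was 0.62 and 0.89 in Wt, 0.22 and 0.35 in Sol, 0.37 and 0.04 in Dia, -0.06 and 0.30 in Quad, -0.05 and -0.14 in EDL, -0.20 and -0.04 in Sed, and -0.44 and -0.67 in mTg, with no peak called in Ex. Pvalb was lowest in Dia and Sol, which overlapped, and at Casq2 Wt lay above and mTg below all the others. At Sln (chr9:53829110-53830354), where the region lies far before the gene, it was 1.01 and 0.77 in EDL, 0.87 and 0.45 in Wt, 0.54 and 0.73 in Quad, 0.37 and 0.45 in Sed, 0.53 and 0.19 in Ex, 0.26 and 0.40 in Sol, 0.16 and 0.17 in mTg, and 0.31 and -0.08 in Dia. At Pln (chr10:53323068-53327770) it was 0.31 and 0.71 in Quad, 0.20 and 0.27 in Dia, 0.15 and 0.30 in EDL, -0.13 and 0.10 in Sed, -0.23 and -0.19 in Sol, -0.59 and -0.20 in mTg, and -0.77 and -0.76 in Ex, with no peak called in Wt. Most neighboring groups overlapped at Sln, and Ex was lowest at Pln.

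**Figure D3:**
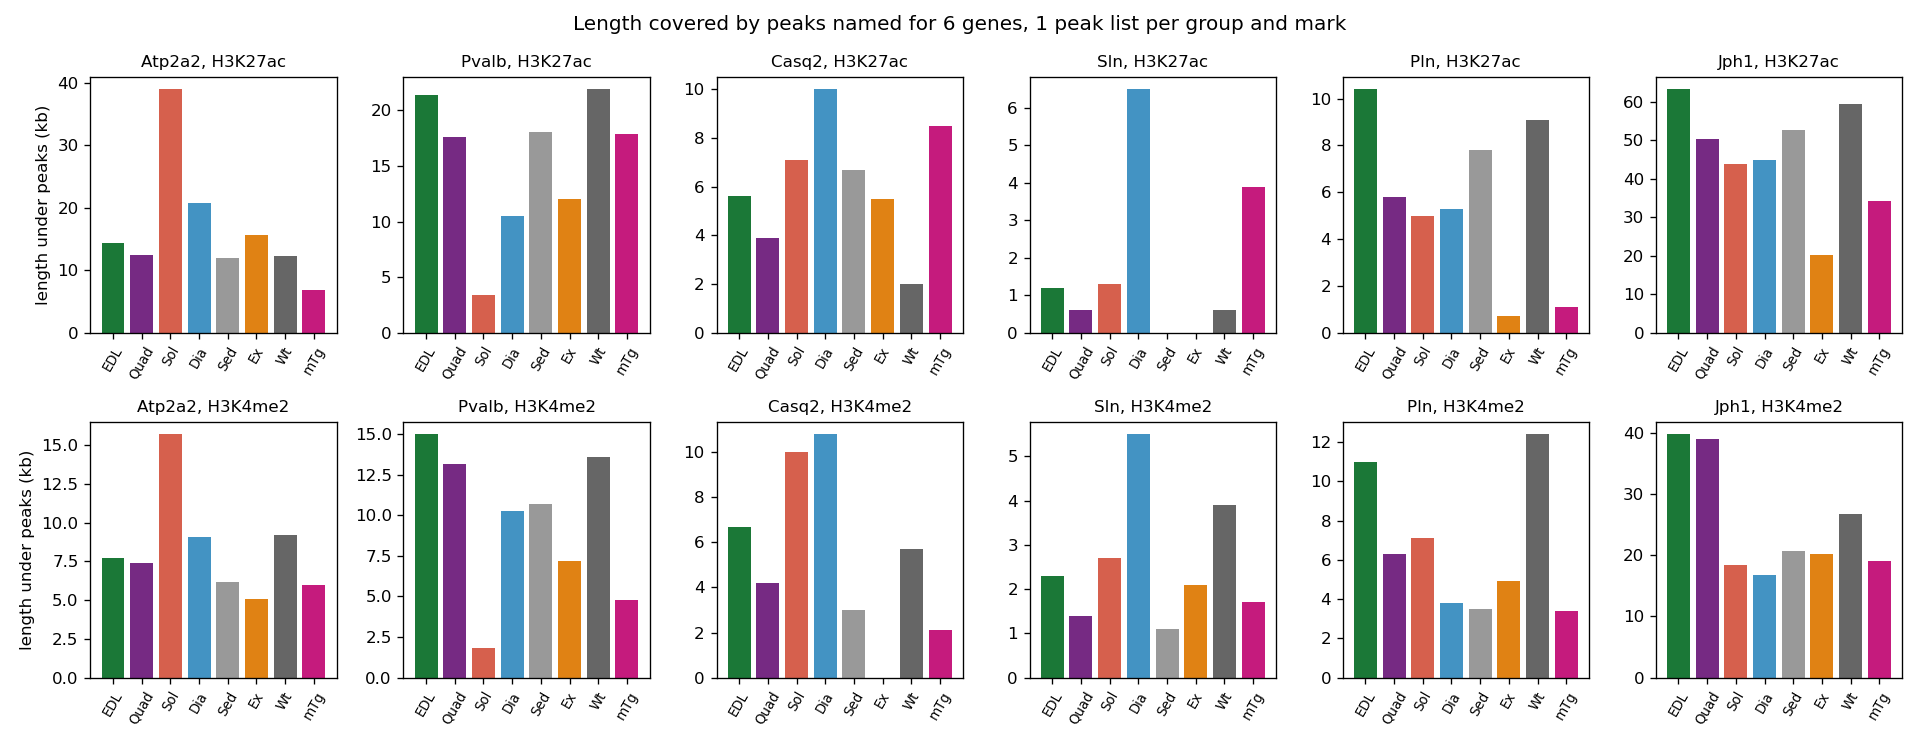
Length in kb covered by peaks named for Atp2a2, Pvalb, Casq2, Sln, Pln and Jph1 in the peak list of each group (1 list made from 2 libraries, hence no error bar), for H3K27ac in the upper row and H3K4me2 in the lower row. The axes start at 0 and differ between genes. Sol stands out with 39.0 kb at Atp2a2 and 3.4 kb at Pvalb for H3K27ac.

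The reach of the marks differed between slow and fast muscle at a few of the genes, for H3K27ac most at Atp2a2 and Pvalb. Among genes with H3K27ac peaks in both lists, covered length was at least 2-fold longer in Sol than in Quad for 6.91% and at least 2-fold shorter for 9.27%. Of the 10 calcium handling genes, Atp2a2 (3.14-fold) and Sln (from 0.6 to 1.3 kb) were longer and Pvalb (a ratio of 0.191) was shorter. Atp2a2 stood at percentile 98.0 of the ratios of all 12141 genes and Pvalb at 0.8. The 7 others had ratios of 0.683 to 1.85. Between Dia and Quad, Casq2 (2.61-fold) and Sln (10.3-fold) were at least 2-fold longer, as were 7.33% of all genes, and no calcium handling gene was 2-fold shorter, against 11.2%. Between EDL and Quad, none was 2-fold longer, against 7.01%, or shorter, against 4.3%. For H3K4me2, Casq2 (2.38-fold) and Atp2a2 (2.12-fold) were at least 2-fold longer in Sol than in Quad, as were 2.75% of all genes. Pvalb, Cacna1s and Jph1 were at least 2-fold shorter, as were 5.54%.

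A stricter reading took only regions matched singly between a pair of lists, with each overlapping the other over at least 50% of its length. Such a region counted as over 2-fold apart when its level per kb, centred on all matched regions, differed by more than 1 on the log2 scale and the replicates did not overlap. The count leaves out regions called in 1 list or of very different width. For H3K27ac, Sol and Quad had none of 17 matched calcium gene regions over 2-fold apart, against 3.74% of all matched regions. Their median difference was -0.50, with 12 of 17 below 0, where the median over all regions is 0 by centring. Sol and EDL had 4 of 19 apart, against 2.88% of all. These were the upstream Atp2a2 region at chr5:122522875-122530946, higher in Sol by 1.36, and the Cacna1s promoter (-1.23), a Jph1 region (-1.09) and a Pln region (-1.30), lower in Sol. Dia and Quad had 1 of 20 apart, against 4.27%, a Pvalb region (chr15:78191639-78197436) at -1.51, and the count was 2 without either Dia library and 4 without Quad replicate 2. EDL and Quad, both fast muscles, had 0 of 24, against 0.643%.

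Fewer H3K4me2 regions could be matched. Between Sol and Quad 1 of 7 was apart, against 1.89%, and between Sol and EDL 1 of 10, against 0.626%. Both times it was the Atp2a2 peak centred at -11894 bp, higher in Sol by 1.47 and 1.07, and the count for Sol and Quad was 2 without Quad replicate 1. Both counts were 0 when only peaks at least 4-fold over input were kept or a reciprocal overlap of 80% was asked, and the count for Sol and EDL was 0 with the replicate number as a block. Between Dia and Quad 1 of 8 was apart, against 1.58%, at Pvalb (-1.72). Between EDL and Quad 1 of 16 was apart, against 0.457%, at Jph1 (-1.29). With so few regions a single call moves the share by several percent, and these counts are read only as a list of which genes met the rule. The 3 separate sets of untreated quadriceps libraries (Quad, Sed, Wt) were compared the same way. None of the 18 to 23 matched calcium gene regions was over 2-fold apart for H3K27ac in any pair of them, against 1.07% for Sed and Quad, 1.35% for Wt and Quad and 0.495% for Wt and Sed, though the 23 regions of Sed lay below those of Quad in 21 cases, with a median difference of -0.30. For H3K4me2, 1 of 11 was apart between Wt and Quad, against 2.7%, a Jph1 region (chr1:16916732-16917617) 2.84-fold lower in Wt, which is more than the Jph1 difference between EDL and Quad. None of 11 was apart between Sed and Quad, against 0.734%, or of 13 between Wt and Sed, against 1.78%. The median H3K4me2 difference was still -0.61 for Sed and Quad and -0.59 for Wt and Quad, with 8 of 11 below 0 in each, and -0.26 for Wt and Sed. Between muscles it was 0.37 for Sol and Quad, -0.19 for Dia and Quad, -0.24 for EDL and Quad and -0.23 for Sol and EDL. By this H3K4me2 median, Sed and Wt thus differed from Quad by as much as muscles did. The median rests on a few regions, which were not the same in each pair, and the sentence does not extend to H3K27ac.

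Wheel running was accompanied by fewer H3K27ac peaks at some of these genes, mostly Jph1 and Pln, and by less covered length at some of them. The Ex list held 24 peaks, with a median width of 2998 bp, and the Sed list 38, with 2503 bp, while the lists as wholes held 34572 and 34031 peaks. Jph1 held 13 peaks in Sed and 6 in Ex, and Pln, whose peaks lie scattered around Cep85l, 5 and 1. Casq1 held 3 and 1, Atp2a2 5 and 4, and Pvalb 4 and 3. Ryr1, Cacna1s and Casq2 held as many in both lists, and Atp2a1 held 1 in Sed and 2 in Ex. Of 9 genes with peaks in both lists, Pln, Ryr1 and Jph1 were at least 2-fold shorter in Ex, as were 10.8% of all genes, and none was 2-fold longer, against 8.99%. At Atp2a2 the covered length was 11.9 kb in Sed and 15.7 kb in Ex. At the lead regions of Atp2a1, Casq1, Pvalb, Ryr1 and Cacna1s both Ex libraries lay below both Sed libraries, at Jph1 they overlapped, and at Atp2a2 and Casq2 they lay above. The share of all regions whose libraries separate in this way was not counted, so this is read only as a list of genes. The matched count was 2 of 9 over 2-fold apart, against 3.17% of all matched regions. Both were in Pvalb. At its 5′ end (chr15:78202592-78207757) the level per kb was -0.09 and -0.53 in Ex and 1.18 and 0.66 in Sed, a centred difference of -1.27. At its 3′ end (chr15:78191799-78196735) it was -0.58 and -1.0 in Ex and 0.64 and -0.06 in Sed, a difference of -1.13. Sed replicate 1 decided this count, since without it no region met the rule, and without Ex replicate 2 only 1 did. For H3K4me2, none of 11 matched regions was apart, against 0.0925%, and covered length was at least 2-fold shorter in Ex at Cacna1s alone of 9 genes, against 5.58%, and 2-fold longer at none, against 2.53%.

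The deposited differential lists hold all 4 libraries of a comparison on 1 scale, so a test within them was possible. The authors had chosen their regions for differing, and 99.7% of the 2280 hypoacetylated regions of Ex and 99.7% of the 382 hyperacetylated regions passed limma at an adjusted p under 0.05. That members passed is therefore no result about them, and p-values describe how far the libraries separate. The hypoacetylated list held 9 regions of calcium handling genes and the hyperacetylated list 0. The 9 regions overlapped 9 of the 38 Sed peaks of these genes (23.7%), against 6.71% of all Sed peaks, and 0 of 24 Ex peaks overlapped a hyperacetylated region, against 1.1%. The peaks of these genes were broader than most, as given above, and the part of width in these shares was not tested.

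Of the 9, 5 belonged to Jph1, 2 to Pvalb, 1 to Ryr1 and 1 to Pln. The change was greatest at a Jph1 region inside the gene (chr1:16993428-17002871), where the deposited log2 level was 10.41 and 10 in Sed and 9.49 and 8.85 in Ex (log2 change -1.04, SE 0.21, limma adjusted p = 3.8e-05). At the 3′ part of Pvalb (chr15:78191501-78198109) it was 9.61 and 9.02 in Sed and 8.52 and 8.22 in Ex (change -0.94). At the 5′ part (chr15:78202065-78207757), which holds the promoter printed above, it was 9.91 and 9.44 in Sed and 8.93 and 8.62 in Ex (change -0.90, SE 0.21, limma adjusted p = 0.00018). At Ryr1 (chr7:29117671-29126721) it was 9.96 and 9.65 in Sed and 9.08 and 8.83 in Ex (change -0.84). The other Jph1 regions changed by -0.92, -0.79, -0.71 and -0.67, and the Pln region, within Cep85l, by -0.47 (limma adjusted p = 0.028). In all 9, as in all 2280 regions of the list, the libraries of the 2 groups did not overlap. The median change was -0.84 for the 9 and -0.76 for the list. Without Ex replicate 2, 5 of the 9 kept an adjusted p under 0.05, and those that did not were 3 of Jph1 and the 1 of Pln.

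**Figure D4:**
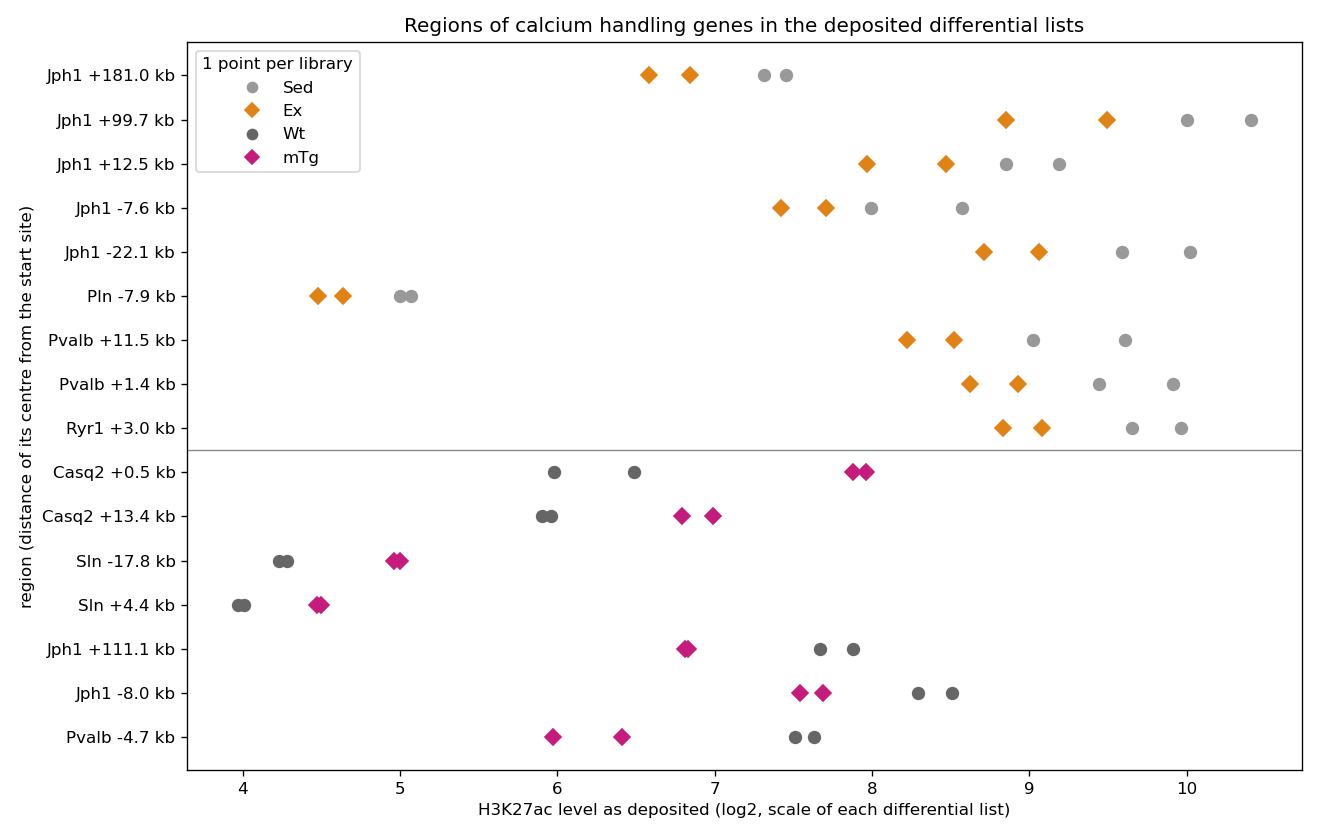
Deposited H3K27ac level (log2, on the scale of each differential list) at the 16 regions of calcium handling genes in the differential lists, with a point per library and the distance of the region from the start site in its label. Circles are the control libraries (Sed above the line, Wt below it) and diamonds the Ex or mTg libraries; the largest gap is at the Casq2 promoter, from 5.98 and 6.49 in Wt to 7.96 and 7.88 in mTg.

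The levels of these regions in the untreated muscles are set beside those of Ex and Sed. The 5′ region of Pvalb had a relative H3K27ac level of 2.17 and 1.86 in Quad and 0.04 and -0.34 in Sol, and the Jph1 region inside the gene 1.94 and 1.32 in Quad and 1.09 and 0.51 in Sol. Ryr1 was nearer in both, at 1.89 and 1.80 in Quad and 1.51 and 1.34 in Sol. Atp2a1, Casq1 and Cacna1s had no region in the Ex lists, although their lead regions lay lower in Ex, and neither had Atp2a2, whose promoter was 1.91 and 1.57 in Ex and 0.66 and 1.47 in Sed.

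Several marker lists of the fiber and of other cells differed between Sed and Ex, but not all lists or genes did. The measure was the percentile of a gene's strongest H3K27ac peak in its library, averaged over a marker list, with a gene without a peak at 0. For Ckm, Acta1, Des and Mb (4 of 4 with a peak) it was 90.1 and 82.4 in Sed and 80.3 and 72.5 in Ex, where the 6 other groups ranged from 94.5 to 97.4. For the endothelial genes Pecam1, Cdh5 and Kdr (3 of 3 with a peak) it was 65.3 and 61.7 in Sed and 74.5 and 74.4 in Ex. For the immune genes Ptprc, Adgre1 and Itgam (3 of 3) it was 9.2 and 24.2 in Sed and 32.5 and 37.6 in Ex, and for the fibroblast genes Col1a1 and Pdgfra (2 of 2) 46.6 and 65.0 in Sed and 68.9 and 71.8 in Ex. Averaged over the 10 calcium handling genes, it was 72.7 and 69.0 in Sed and 68.5 and 60.8 in Ex. From peak lists of whole muscle, fewer fiber nuclei and less acetylation per nucleus cannot be told apart. The study measured RNA of immune, vascular, satellite cell and myogenic markers by qPCR. It reported no change in the cell composition of Ex muscle. The part of the H3K27ac marker levels in the Ex differences was not tested.

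**Figure D5:**
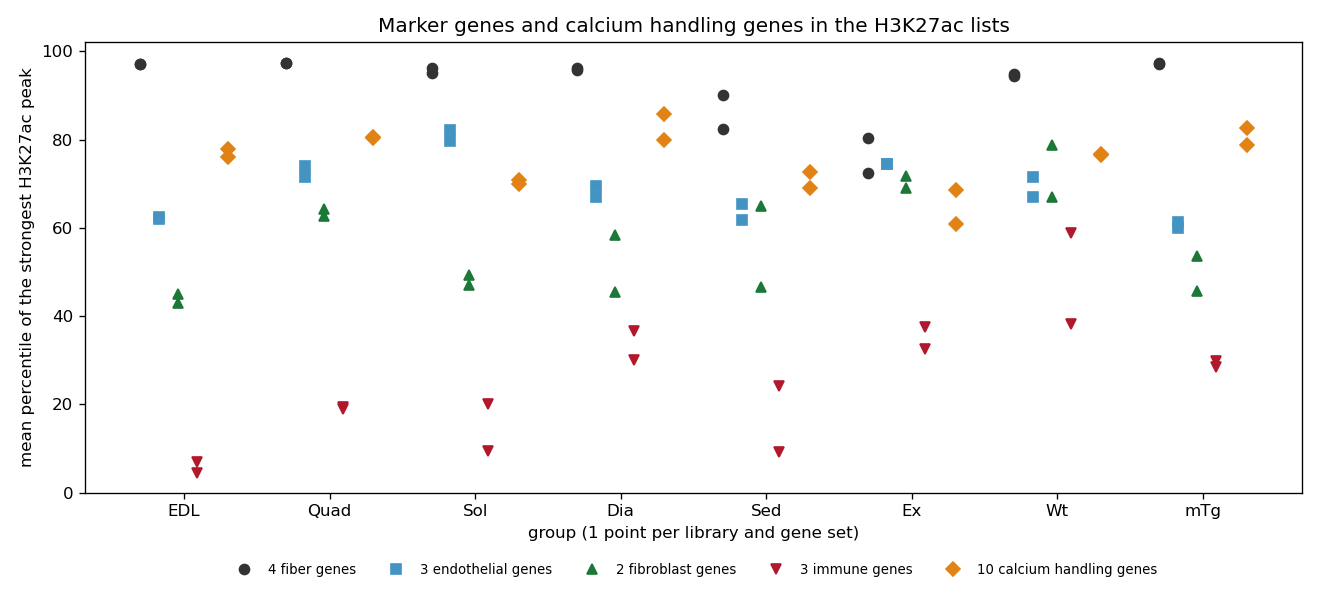
Mean percentile of the strongest H3K27ac peak (vertical axis, 0 to 100 within a library; a gene without a peak counts as 0) for 4 fiber genes, 3 endothelial genes, 2 fibroblast genes, 3 immune genes and the 10 calcium handling genes, with a point per library in the 8 groups. The fiber genes are lowest in Ex, at 80.3 and 72.5, where the calcium handling genes are at 68.5 and 60.8.

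In mTg muscle the H3K27ac differences went in both directions, with regions of Casq2 and Sln higher and parts of Pvalb and Jph1 lower. Covered length of H3K27ac was at least 2-fold longer in mTg than in Wt for 5.16% of all genes and at least 2-fold shorter for 17.0%. For H3K27ac, Casq2 (4.22-fold) and Sln (6.14-fold) were longer, at percentiles 99.2 and 99.7 of the ratios of all genes, and Pln was shorter. The Casq2 ratio depends on its control. Peaks covered 8.5 kb in mTg and 2.0 kb in Wt, but 3.9 kb in Quad and 6.7 kb in Sed, which are also untreated quadriceps. H3K4me2 went the other way at both Casq2 and Sln. It was at least 2-fold shorter in mTg at 6 of the 10 genes, against 14.1% of all genes, and 2-fold longer at none, against 2.26%. The 6 were Atp2a1, Casq2 (5.7 kb in Wt and 2.1 kb in mTg), Sln (3.9 and 1.7 kb), Pln, Pvalb and Ryr1. None of 14 matched regions was over 2-fold apart for H3K27ac, against 4.64%, and none of 5 for H3K4me2, against 0.724%. The Casq2 promoter and the stretch before Pvalb were called in 1 of the 2 lists, which removes them from this count. The relative level of H3K4me2 at the lead regions was lower in the libraries labelled mTg. At Atp2a1 it was 1.06 and 1.16 in Wt and 0.16 and 0.50 in mTg, and at Jph1 0.91 and 0.82 in Wt and -0.15 and -0.03 in mTg. This level is set against all peaks of each list, and the lists differ in length. Centred on matched regions instead, mTg minus Wt was -0.87 at Casq1, -0.57 at Casq2 and -0.02 at Atp2a2. At a Jph1 region it was 0.13 and at Sln 0.40, and the median of the 5 was -0.02. The mTg libraries held 6.41 and 14.1 M tags and the Wt libraries 13.7 and 13.3 M, so only mTg replicate 1 was shallow, and the mTg list held 27527 peaks, against 46944 for Wt. The part of depth and of list length in the lower relative levels was not tested.

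The hyperacetylated list of mTg held 4 regions of calcium handling genes, 2 of Casq2 and 2 of Sln, and the hypoacetylated list 3, of Pvalb and Jph1. All 1828 and 844 regions of these lists (100% of each) passed limma, so a call adds nothing for a single gene. The 4 overlapped 4 of the 39 mTg peaks of these genes (10.3%), against 4.96% of all mTg peaks, and the 3 overlapped 3 of 47 Wt peaks (6.38%), against 1.72% of all Wt peaks. The Casq2 promoter (chr3:102085008-102088837), which holds the sequence printed above, was 5.98 and 6.49 in Wt and 7.96 and 7.88 in mTg (log2 change 1.69, SE 0.14, limma adjusted p = 6.1e-10). Its change stood at percentile 99.4 by size in the list, whose median was 0.74. A Casq2 intron (chr3:102098695-102101016) was 5.96 and 5.90 in Wt and 6.99 and 6.79 in mTg (change 0.96). The Sln regions changed by 0.72 before the gene (chr9:53832085-53832868) and by 0.49 at its end (chr9:53853979-53855248), at low levels of 3.97 to 5.0.

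Among the hypoacetylated regions, the stretch before Pvalb (chr15:78209133-78212960) was 7.63 and 7.51 in Wt and 6.41 and 5.97 in mTg (log2 change -1.38, SE 0.14, limma adjusted p = 1.4e-07). This was at percentile 98.1 by size, against a list median of -0.63. The same stretch was called in EDL (relative level 0.94 and 0.94), Quad (1.08 and 0.65), Sed (0.13 and -0.23), Ex (-0.39 and -0.49) and Wt (0.96 and 0.80), and not in Sol, Dia or mTg. Over the whole lead region of Pvalb the groups were nearer, at 1.46 and 1.44 in Wt and 1.42 and 1.28 in mTg. Jph1 regions before the gene (chr1:17103396-17108462) and at 111086 bp after its start, annotated as intergenic (chr1:16984854-16988753) changed by -0.79 and -0.96. The Jph1 region before the gene nearly coincided with 1 of the hypoacetylated Ex regions (chr1:17102917-17108012, change -0.71) and was not called in Sol or Dia. The 2 comparisons have separate controls, and their difference was not tested.

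Casq2 and Sln in mTg quadriceps had peaks at places where Dia had them. The Sln regions of the list were called in Dia, at 0.02 and 0.01 before the gene and -1.07 and -1.04 at its end, and in no other group but mTg (0.37 and 0.42, then -0.79 and -0.91). The Casq2 intron region was called in 6 groups, EDL, Sol, Dia, Sed, Ex and mTg, and not in Quad or Wt. Atp2a2, the slow pump, was not part of this. It had no region in the mTg lists, its covered length was 6.8 kb in mTg and 12.3 kb in Wt, and the upstream region that was broad in Sol was called over 1.40 kb in mTg at -1.19 and -1.38. For the slow fiber genes Myh7, Tnni1, Tnnt1, Tnnc1 and Myl2 the mean percentile was 32.3 and 33.1 in Wt. It was 14 and 11.9 in mTg and 80.3 and 76.4 in Sol. Peaks were called at 3, 2 and 5 of the 5 genes in Wt, mTg and Sol. The lower mean in mTg came from Myl2 and from Tnnt1, which had no peak there and counted as 0. Tnni1 was higher in both mTg libraries than in Wt, and Myh7 and Tnnc1 had no peak in either group. The fast fiber genes Myh4, Myh1, Actn3, Tnni2 and Tnnt3 were also lower on average, at 94.0 and 94.4 in Wt and 86.9 and 87.8 in mTg. The other markers also differed between these groups. The fiber genes stood at 94.5 and 94.8 in Wt and 97.1 and 97.4 in mTg, the endothelial genes at 71.4 and 66.9 and at 59.9 and 61.3, the immune genes at 58.9 and 38.3 and at 28.5 and 29.8, and the fibroblast genes at 78.8 and 67.0 and at 45.7 and 53.6. By qPCR the study reported raised RNA of macrophage and vascular markers in mTg muscle. The mean H3K27ac percentiles of the immune and endothelial genes went the other way. The study also stated that altered cellularity could contribute to the mTg signals. The part of these marker levels in the mTg differences was not tested.

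Of 27 other genes of the pathway, among them partners of the release channel, calmodulin and its kinases, exchangers and store-operated entry, the Ex hypoacetylated list held 13 regions. These were at Jph2, Trdn and Cacna2d1 (2 each) and Cacng1, Cacnb1, Srl, Slc8a3, Camk2a, Camk2b and Camk2d (1 each), and overlapped 14 of 108 Sed peaks (13%), against 6.71% of all Sed peaks. Jph2, the second junctophilin, had the highest level, at 11.81 and 11.81 in Sed and 11.09 and 10.84 in Ex (chr2:163373459-163401368, change -0.85). Cacng1 and Cacnb1, subunits of the same channel as Cacna1s, changed by -0.91 and -0.80, and Trdn, which anchors calsequestrin to the release channel, by -0.86 and -0.73. No region of the 27 genes was in the Ex hyperacetylated list. In mTg, Itpr1 and Trdn had 1 hyperacetylated region each (1.52% of 132 mTg peaks, against 4.96% of all), and Camk2a had 1 hypoacetylated region (0.613% of 163 Wt peaks, against 1.72% of all). Between Sol and Quad 5 of 55 matched regions of these genes were over 2-fold apart, all lower in Sol (against 3.74% of all matched regions), with a median difference of -0.32.

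Mediator was found at few of the acetylated calcium gene regions. In Quad 4 of 43 H3K27ac peaks of these genes held a MED1 peak (9.3%), against 3.76% of all Quad H3K27ac peaks. They were at the starts of Pvalb, Ryr1 (score 12.1), Jph1 (8.3) and Cacna1s (6.39). In Sol 1 of 34 did (2.94%), against 5.34%, and it was the Atp2a2 peak printed above. The other 3 Sol MED1 peaks of these genes (2 in Casq2 and 1 near Jph1) were outside H3K27ac peaks, and of all Sol MED1 peaks 46.8% lay inside one. In Dia 2 of 40 did (5.0%), against 4.16%, at the starts of Atp2a2 and Jph1. In EDL 1 of 47 did (2.13%), against 1.12%, at the start of Ryr1 (score 10.2). The shares rest on 1 to 4 peaks each and on 1 MED1 library per muscle.

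Open chromatin was measured by ATAC-seq in control Quad. Of the 43 H3K27ac peaks of these genes, 20 overlapped an ATAC peak (46.5%), against 57.2% of all. All 3 peaks of Cacna1s did and 8 of 13 of Jph1, and 0 of the 2 peaks of Casq2 and the 1 of Sln. NFAT, which calcineurin activates when calcium stays high, had 0 peaks at these genes in Quad, where its list holds 485 peaks, and 7 in Sol, where it holds 39661. Those 7 were at Jph1 (3), Casq1 (2), Casq2 (1) and Sln (1). None lay in a Sol H3K27ac peak, and of all Sol NFAT peaks only 2.69% did. Of the 34 Sol H3K27ac peaks of these genes 0 held an NFAT peak, against 3.02% of all Sol H3K27ac peaks.

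Among 14901 genes with peaks in at least 3 lists, the genes whose strongest H3K27ac peak followed a calcium handling gene most closely over the 16 libraries were named by Pearson's r of the percentiles. For Atp2a1 they were Mir7660, Tmod4 and Cdc34 (r of 0.98 for each), for Pvalb Mybpc2 (0.97), Slc16a10 (0.97) and Gpd1 (0.96), and for Atp2a2 St6gal1 (0.93), Gm20257 (0.92) and Degs1 (0.91). The 16 points come in 8 pairs that share a peak list. Mybpc2, the fast myosin binding protein, stood at 98.3 and 97.2 in Quad, 66 and 40.9 in Sol and 73.2 and 60.3 in Ex, beside 98.0 and 95.6, 51.8 and 35.5, and 66.1 and 46.1 for Pvalb.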

How the data were processed

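The members and gene lists were chosen with earlier results of these data known. Per the labels, ChIP-seq reads were aligned to mm10 with Bowtie 1.2 and analysed with HOMER, and by the study's methods ATAC-seq reads were aligned with Bowtie2. By the study's methods, only uniquely mapped reads and 1 tag per position were kept, and peaks were called against input over both libraries of a group at a 2-fold and adjusted p threshold. The deposited peak lists give a log2 level per library, which the authors normalized within each list. They are not counts, so no count model was used. Differential lists hold log2 levels of 4 libraries that the authors scaled together. The authors' columns of fold changes and p-values against input were used only for the stricter selections, and those comparing Ex with Sed or mTg with Wt were not used. MED1 and NFAT lists hold a HOMER peak score, and the ATAC list a scaled tag signal, as deposited. A further 5 interval files were not used.

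Levels were divided by width in kb and centred on each library's median (Python 3.11.15, pandas 2.3.3). Pairs of lists were compared without a test, by regions with a reciprocal overlap of 50% and a difference past 2-fold. Within the 4 differential lists limma 3.58.1 (R 4.3.3) was fitted to all regions, two-sided, with Benjamini-Hochberg adjustment over the list. All 10 genes, their lead regions of both marks, all their differential regions and all their regions past 2-fold were reported. With 2 libraries per group, p-values measure only the spread between these libraries. Scripts were tested on simulated data. Sequences came from RefSeq GRCm38.p6, whose promoter table held 7 of the 10 genes (not Atp2a2, Sln or Jph1), and 8 of 8 windows matched the genome.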

Additional observations from a re-analysis of the deposited data

How the results depend on the processing

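The counts of matched calcium gene regions over 2-fold apart are small and moved with the settings. With the level not divided by width, H3K27ac gave 3 for Sol and Quad, 3 for Dia and Quad, 7 for Sol and EDL, 5 for Ex and Sed and 1 for mTg and Wt, and H3K4me2 gave 2 for Sol and Quad, 2 for Dia and Quad, 3 for Sol and EDL and 2 for mTg and Wt. Without centring, H3K27ac gave 3 for Dia and Quad, and H3K4me2 gave 0 for EDL and Quad and 1 for mTg and Wt. A reciprocal overlap of 80% gave 2 for Sol and EDL and 1 for Ex and Sed in H3K27ac, and 0 in H3K4me2 for Sol and Quad, EDL and Quad, and Sol and EDL, as did keeping only peaks at least 4-fold over input for the same 3 pairs. Leaving out 1 library at a time gave 1 to 4 for Dia and Quad, 3 to 4 for Sol and EDL and 0 to 3 for Ex and Sed in H3K27ac, and 1 to 2 for Sol and Quad in H3K4me2. For Dia and Quad it gave 2 without either Dia library and 4 without Quad replicate 2, for Ex and Sed 0 without Sed replicate 1 and 1 without Ex replicate 2, and for H3K4me2 of Sol and Quad 2 without Quad replicate 1. The cause of these moves was not tested.

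Of the limma counts, the 9 hypoacetylated Ex regions became 5 to 9 when a library was left out, with 5 without Ex replicate 2. Quantile normalization within the lists left 0 hypoacetylated Ex, 1 hyperacetylated mTg and 0 hypoacetylated mTg regions, which follows from its construction, since each list holds regions of 1 direction. Leaving out the lowest 25% of regions by mean level left 2 of the 4 hyperacetylated mTg regions, because the Sln regions were removed. Over all alternatives 81 of 109 counts past 2-fold and 28 of 33 limma counts stayed within 1.5 times the value reported. The limma counts include those of the hyperacetylated Ex list. It held 0 regions of calcium handling genes, so its counts could only be 0 and say nothing about stability.

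Replicate numbers name libraries in the labels and are not stated to pair them. With 2 pairs per comparison, the deviations of same-numbered libraries correlated between -0.24 and 0.49. A fit with the replicate number as a block gave 1 region for Ex and Sed in H3K27ac and 0 for Sol and EDL in H3K4me2, and moved no other count past 1.5 times. For mTg and Wt, where the correlation was -0.11 for H3K27ac and -0.24 in the hypoacetylated list, a block with crossed numbers, chosen after seeing the data, gave 0 matched regions apart and 3 hypoacetylated regions.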
